A study of Mus musculus with 24 samples.

Results

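The 10 genes described here mark natural killer (NK) cells and other cytotoxic lymphocytes: Gzma, Gzmb, Prf1, Nkg7, Klrk1, Klrd1, Klrb1c, Ncr1, Ifng and Eomes. They were taken from the count table by symbol. All 10 were among the 51138 genes of the table, and all 10 were among the 30564 genes left by a filter of at least 10 counts over all samples.

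NK cells are innate lymphocytes that kill infected, transformed or foreign cells without prior immunization. Activating receptors, among them NKp46, NK1.1 and NKG2D, recognize the target, and granules holding perforin and granzymes are then released against it, while interferon-gamma activates macrophages and raises antigen presentation nearby. CD8+ T cells and some other T cells use the same granules and share several of the receptors, whereas NKp46 is largely restricted to NK cells and related innate lymphoid cells. In the foreign body reaction around an implanted biomaterial, such lymphocytes are a minor population beside macrophages and giant cells.

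RNA was measured in whole constructs collected at week 2 from a pocket under the skin of Foxp3-DTR/eGFP mice, 8 to 9 weeks old and of both sexes, whose Foxp3-expressing regulatory T cells (Treg) carry the diphtheria toxin receptor. Each of the 24 samples came from a different mouse, in 6 groups of 4. The constructs were granules of biphasic calcium phosphate without cells (BCP), granules with bone marrow mesenchymal stromal cells of C57BL/6J mice (BCP+MSC), with MSC that had been exposed beforehand to resolvin E1, a lipid mediator, at 10 nM (BCP+MSC+RvE1), or with MSC grown together with Treg activated through CD3 and CD28 (BCP+MSC+Treg). In the other 2 groups the mice received diphtheria toxin at 50 µg per kg and carried BCP+MSC constructs, either without further treatment ((dep)BCP+MSC) or with local daily injections of 1 µM RvE1 ((dep)BCP+MSC+RvE1inj). The values hold RNA of the seeded cells and of host cells of every kind that entered the construct, including any Treg, and they come from hosts of 1 strain with 1 time point, which limits each group as a model of the response. The values are CPM, the counts of a gene relative to the library's total, scaled by the TMM method. In such bulk samples, fewer cells of a type and less RNA per cell cannot be told apart.

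Total counts ran from 8482701 to 144417743 per sample. Numbers 1 and 2 of (dep)BCP+MSC stood apart: the summed level of 10 general leucocyte genes was 1849 and 2121 CPM there and 2980 to 5397 CPM in the other 22 samples. Number 1 was also the shallowest sample, and the fold changes of (dep)BCP+MSC are therefore given with and without this pair. Foxp3, whose cells the toxin removes, was at 0.378 to 1.70 CPM in (dep)BCP+MSC and 0.299 to 1.07 CPM in (dep)BCP+MSC+RvE1inj. These values lay within or near the 0.356 to 2.14 CPM of the 4 groups without toxin. Foxp3 RNA in the constructs at week 2 thus did not separate depleted from undepleted hosts. The paper checked depletion by flow cytometry in lymph nodes and spleen and reports fewer Treg there, which construct RNA does not measure.

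The genes lie on 6 chromosomes of the mouse genome (GRCm38). Klrk1, Klrd1 and Klrb1c lie on chromosome 6 in the NK gene complex, Klrk1 at 129610323 to 129623864 and Klrd1 next to it at 129591782 to 129598775, with Klrb1c at 128778485 to 128789215. Ncr1 (4337724 to 4345164) and Nkg7 (43437073 to 43438249) lie on chromosome 7, and Prf1 and Ifng on chromosome 10. Klrb1c and Ifng each overlap a predicted gene on the same strand and Eomes a predicted gene on the opposite strand, and reads were counted without regard to strand, so counts of these 3 genes could be shifted by their neighbours. The other 7 overlap no gene of the table.

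Promoters of 9 of the 10 genes were found in the RefSeq table for GRCm38.p6. Runx factors and the T-box factors Eomes and T-bet govern the cytotoxic program, so their core letters were searched on both strands in the 250 bases before each start. The Runx letters TGTGGT or their reverse complement were present in 7 of the 9 promoters and in 13.96% of all 32544 promoters. The T-box letters AGGTGT or theirs were present in 3 of the 9 and in 11.88% of all. The 150 bases before the start are shown for the gene with the clearest difference below (Ncr1), for another NK receptor (Klrb1c) and for the granule genes set against Ncr1 later (Gzmb and Nkg7). Capitals mark the Runx letters, read on either strand. A match describes the letters only, and no binding was measured.

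Ncr1 (chr7:4337565-4337714, plus strand): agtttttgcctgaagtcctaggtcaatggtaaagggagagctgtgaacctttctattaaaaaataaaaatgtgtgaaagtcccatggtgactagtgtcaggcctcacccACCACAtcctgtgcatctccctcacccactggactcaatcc
Klrb1c (chr6:128788642-128788791, minus strand): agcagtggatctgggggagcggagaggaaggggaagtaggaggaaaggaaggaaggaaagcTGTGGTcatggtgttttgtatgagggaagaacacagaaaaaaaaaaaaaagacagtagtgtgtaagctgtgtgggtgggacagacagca
Gzmb (chr14:56262335-56262484, minus strand): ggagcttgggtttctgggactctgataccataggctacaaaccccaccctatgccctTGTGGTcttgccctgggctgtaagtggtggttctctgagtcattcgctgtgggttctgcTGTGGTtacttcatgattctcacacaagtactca
Nkg7 (chr7:43436988-43437137, plus strand): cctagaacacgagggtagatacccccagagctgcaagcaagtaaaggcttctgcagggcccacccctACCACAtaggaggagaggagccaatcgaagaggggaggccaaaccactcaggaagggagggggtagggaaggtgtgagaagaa

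In Gzmb the letters occurred at both 93 and 34 bases before the start, counted at the first base, and in Ncr1 the match shown began 41 bases before it. The RefSeq starts used here need not be those of the gene models behind the counts.

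Compared per kilobase of exon, Gzma and Nkg7 had the highest median level over the 24 constructs, at 13.4 and 9.61 CPM per kb. Gzmb and Klrd1 came next (3.78 and 2.61 CPM per kb). Prf1, Klrb1c, Klrk1, Ncr1 and Eomes followed, with medians from 1.35 down to 0.460 CPM per kb, and Ifng was lowest at 0.115 CPM per kb. Ifng had 3 counts or fewer in 9 of the 24 samples, Ncr1 in 2 and Eomes in 1, a level taken here as the floor of detection, and the remaining 7 genes were above it in every sample.

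**Figure D1:**
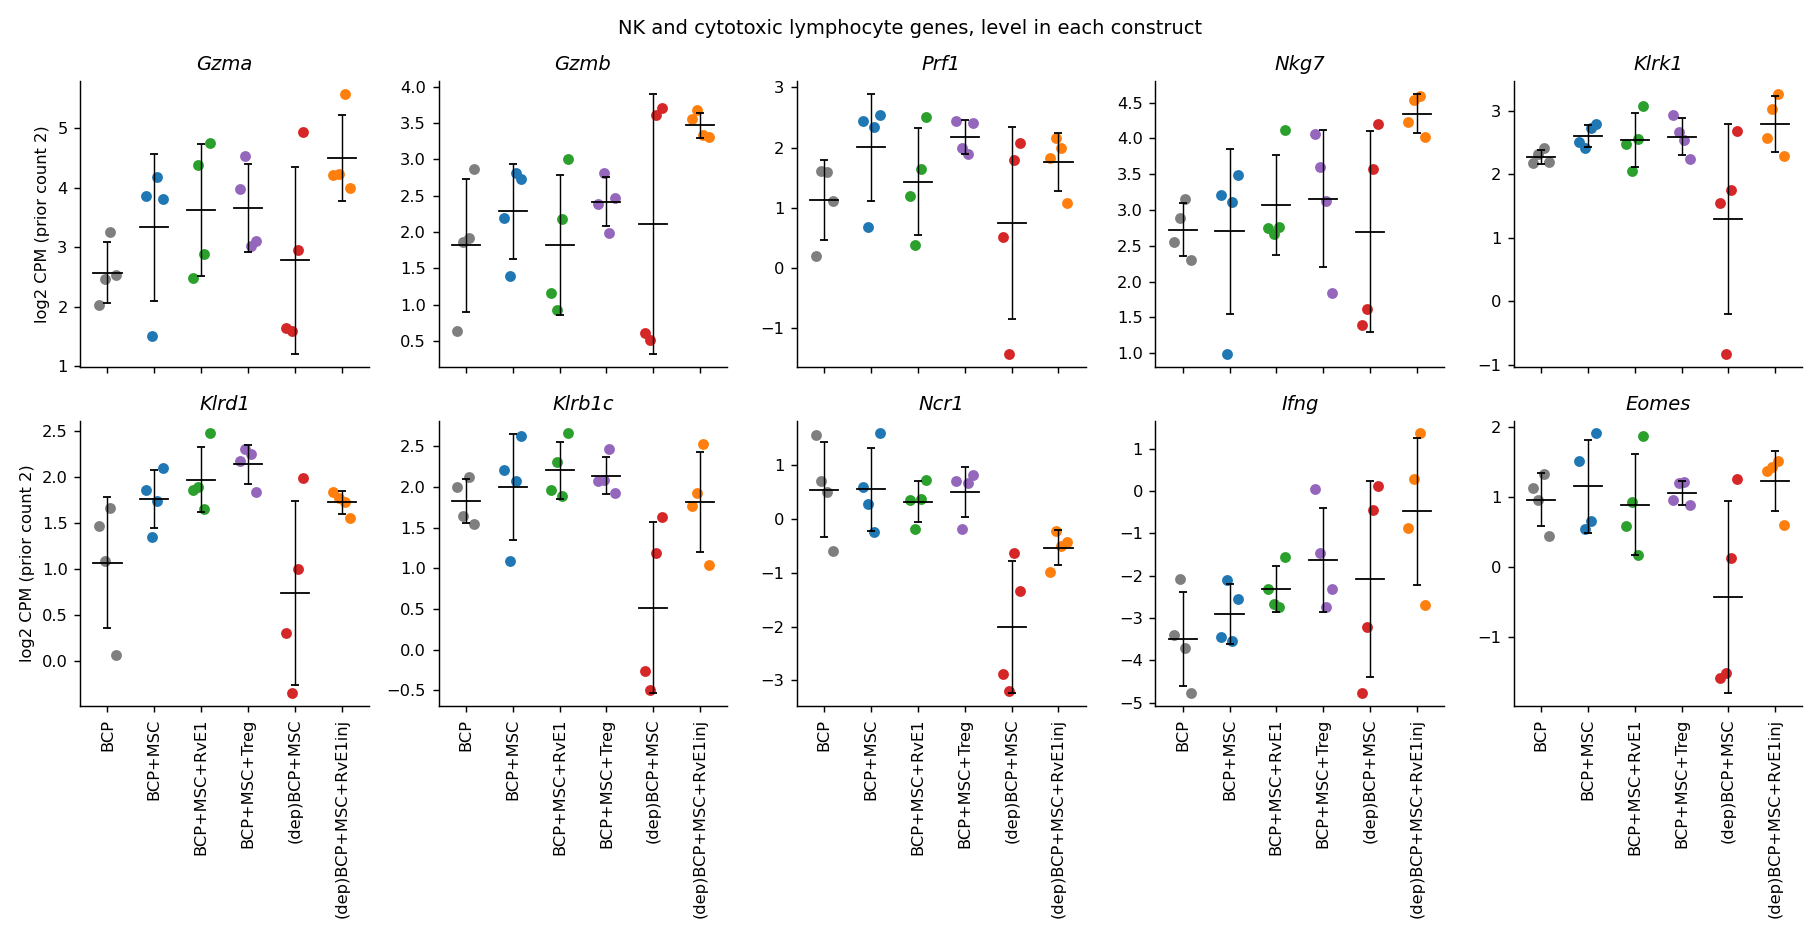
Level of each gene in each of the 24 constructs, by group, on the log2 CPM scale (y axis, prior count of 2). Points are constructs, horizontal lines group means and whiskers SDs (n = 4). Numbers 1 and 2 of (dep)BCP+MSC are the lowest or nearly the lowest points for most genes, and Ncr1 is low in all 4 constructs of that group.

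The first set of comparisons asked whether seeded MSC, or MSC primed with RvE1 or Treg, changed NK and cytotoxic genes in hosts that kept their Treg. None of the 10 genes passed an adjusted p of 0.05 in the 6 comparisons among BCP, BCP+MSC, BCP+MSC+RvE1 and BCP+MSC+Treg by edgeR's quasi-likelihood test with Benjamini-Hochberg adjustment. The share of all genes past it was also 0% in each of the 6. At an unadjusted p under 0.05, 0 of the 10 genes passed in BCP+MSC against BCP (5.06% of all genes), in BCP+MSC+RvE1 against BCP+MSC (3.26%), in BCP+MSC+Treg against BCP+MSC (2.72%) and in BCP+MSC+Treg against BCP+MSC+RvE1 (2.37%).

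Klrd1, which encodes CD94, the partner of the NKG2 receptors, had its lowest mean of the groups without toxin on bare granules. It was at 2.74, 2.08, 3.12 and 1.01 CPM in BCP, and at 4.48, 4.92, 4.74 and 3.54 CPM in BCP+MSC+Treg. Every BCP+MSC+Treg construct lay above every BCP construct. The log2 fold change was 0.97 (SE 0.40), which did not pass the adjusted test (adjusted p = 0.614, unadjusted p = 0.0219, exact permutation p = 0.0286, the smallest that 4 against 4 allows). In BCP+MSC+RvE1 it was at 3.61, 3.67, 3.10 and 5.53 CPM, overlapping BCP by a narrow margin (log2 fold change 0.82, SE 0.40, edgeR unadjusted p = 0.0492, adjusted p = 0.321).

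Ifng, which encodes interferon-gamma, was low in these 4 groups. In BCP it was at 0.0583, 0.201, 0.0402 and 0 CPM, and in BCP+MSC+Treg at 0.998, 0.324, 0.112 and 0.164 CPM. The groups overlapped, and the highest value came from a single BCP+MSC+Treg construct with 76 counts. The log2 fold change was 2.27 (SE 1.01) with an edgeR unadjusted p of 0.0330 and an adjusted p of 0.614. It was 1.26 without that construct (BCP+MSC+Treg number 1, unadjusted p = 0.240) and 3.47 without BCP number 2 (unadjusted p = 0.0101). Klrd1 was thus 1 of 10 genes higher at the unadjusted level in BCP+MSC+RvE1 against BCP, where 8.86% of all genes were, and Klrd1 and Ifng were 2 of 10 in BCP+MSC+Treg against BCP, where 4.98% were.

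The remaining genes overlapped between these groups in most pairs. Gzma, a tryptase of the granules, was at 4.02, 5.50, 9.53 and 5.73 CPM in BCP. It was at 14.6, 2.79, 18.0 and 14.0 CPM in BCP+MSC. Prf1, which encodes the pore-forming perforin, was at 1.11, 3.02, 2.98 and 2.14 CPM in BCP and 5.43, 1.57, 5.05 and 5.79 CPM in BCP+MSC. In both genes 3 of the 4 BCP+MSC constructs lay above all BCP constructs, and number 2 lay among or below them. Prf1 was at 5.37, 3.95, 3.67 and 5.26 CPM in BCP+MSC+Treg, above every BCP construct (log2 fold change 0.97, edgeR unadjusted p = 0.0908), as was Klrd1, where 1.33% of all genes were. Klrk1, which encodes the activating receptor NKG2D, was at 4.49, 4.95, 5.28 and 4.53 CPM in BCP. All 4 BCP+MSC constructs lay just above them, from 5.31 to 6.86 CPM (log2 fold change 0.34, edgeR adjusted p = 0.943), as in 1.25% of all genes. Over these 16 constructs Klrk1 stayed between 4.09 and 8.41 CPM.

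In BCP+MSC+RvE1, Gzma was at 5.54, 20.9, 7.38 and 26.8 CPM and Gzmb at 2.20, 1.87, 4.48 and 8.00 CPM, so that number 4 was highest in both. In BCP+MSC+Treg, Gzma was at 15.8, 23.2, 8.03 and 8.55 CPM and Gzmb at 5.20, 7.01, 3.94 and 5.51 CPM. Nkg7 was at 6.65, 6.32, 6.73 and 17.3 CPM in BCP+MSC+RvE1 and at 16.7, 12.1, 8.72 and 3.54 CPM in BCP+MSC+Treg. Klrb1c was at 2.09 to 6.28 CPM, Eomes at 1.10 to 3.73 CPM and Ncr1 at 0.629 to 2.99 CPM over the 16 constructs, with the 4 groups overlapping. Ranked by mean CPM, each gene's groups overlapped with their neighbours in the order in every case but 1, Ncr1 between BCP+MSC+RvE1 and (dep)BCP+MSC+RvE1inj.

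Of the related lists, other granzymes set against BCP+MSC held Gzmd, a granzyme of the same gene cluster as Gzmb, at a log2 fold change of -3.44 (SE 1.08) in BCP+MSC+RvE1 (adjusted p = 0.924) and -2.90 (SE 1.06) in BCP+MSC+Treg (adjusted p = 1). Neither passed edgeR's adjusted test. Klrc3, an NKG2 receptor, had 0 counts in all 4 BCP+MSC+RvE1 constructs and a mean of 0.0960 CPM (SD 0.156, n = 4) in BCP+MSC+Treg, with an edgeR adjusted p of 1. Near-identical granzyme and Klr genes can lose reads that align to several copies, so these values are uncertain.

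The next comparison, (dep)BCP+MSC against BCP+MSC, set the same kind of construct in hosts given toxin against hosts without it. The paper describes the depletion as an experiment of its own, in which all mice received toxin. Toxin, loss of Treg and experiment therefore differ together here and cannot be told apart. Ncr1, which encodes the NK receptor NKp46, fell 5.17-fold and was the only gene of the 10 past the adjusted threshold, where 3.92% of all genes passed and 2.17% fell. The receptor genes Ncr1, Klrb1c and Klrk1 and the factor gene Eomes were lower at an unadjusted p under 0.05, while of the 4 granule genes Prf1 was at -0.91 on the log2 scale and Gzma, Gzmb and Nkg7 lay between -0.15 and 0.45, none of them past that level, and Ifng was higher at the unadjusted level.

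Ncr1 was at 1.47, 1.18, 0.811 and 2.99 CPM in BCP+MSC. In (dep)BCP+MSC it was at 0.100, 0.0723, 0.611 and 0.357 CPM, in the order of numbers 1, 2, 4 and 5. The groups did not overlap, as was true of 4.93% of all genes in the lower direction. The log2 fold change was -2.37 (SE 0.57, edgeR adjusted p = 0.0179, exact permutation p = 0.0286). Numbers 1 and 2 rested on 1 and 3 counts, with exact Poisson 95% intervals of 0.00252 to 0.555 CPM and 0.0149 to 0.211 CPM, which cover counting error only. Numbers 4 and 5, with ordinary leucocyte levels, had 52 and 17 counts and intervals of 0.457 to 0.802 CPM and 0.208 to 0.571 CPM. All 4 upper bounds lay under the lowest BCP+MSC value of 0.811 CPM, whose own interval was 0.600 to 1.07 CPM.

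Without the pair of low-leucocyte constructs, an alternative added after the values were seen, the log2 fold change of Ncr1 was -1.71 and the call was lost (edgeR adjusted p = 0.342). The call was also lost without number 1 (-2.19, adjusted p = 0.0659), without number 2 (-2.04, adjusted p = 0.0709), without BCP+MSC number 4 (-1.89, adjusted p = 0.0655) and when only these groups were fitted (-2.38, adjusted p = 0.141). Scaled to leucocyte genes, which moved the median log2 fold change of all genes to 0.69, Ncr1 was at -1.98 (adjusted p = 0.0211).

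Klrb1c, which encodes NK1.1, was at 4.61, 2.09, 4.19 and 6.15 CPM in BCP+MSC and at 0.798, 0.675, 2.25 and 3.07 CPM in (dep)BCP+MSC. Only number 2 of BCP+MSC lay within the range of the toxin group. The log2 fold change was -1.30 (SE 0.42, edgeR unadjusted p = 0.00488, adjusted p = 0.0803). Eomes, a T-box factor required for mature NK cells, was at 2.84, 1.42, 1.54 and 3.73 CPM against 0.299, 0.313, 1.06 and 2.35 CPM (log2 fold change -1.20, SE 0.51, adjusted p = 0.189).

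Klrk1 was at 5.65, 5.31, 6.55 and 6.86 CPM in BCP+MSC against 2.89, 0.530, 3.34 and 6.40 CPM (log2 fold change -0.88, SE 0.42, edgeR adjusted p = 0.232). Klrd1 was at 3.60, 2.52, 3.29 and 4.25 CPM against 1.20, 0.747, 1.96 and 3.95 CPM (log2 fold change -0.78, adjusted p = 0.269). In both genes number 5 of the toxin group reached the BCP+MSC range and number 4 did not. Without numbers 1 and 2 the log2 fold changes of Klrb1c, Eomes, Klrk1 and Klrd1 were -0.67, -0.47, -0.30 and -0.19, and none passed an unadjusted p of 0.05. Scaled to leucocyte genes they were -0.76, -0.71, -0.28 and -0.20.

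Gzmb and Nkg7 split the toxin group into a low and a high pair. Gzmb, which encodes granzyme B, was at 1.5, 1.4, 12.2 and 13.0 CPM in (dep)BCP+MSC, against 4.53, 2.60, 7.00 and 6.58 CPM in BCP+MSC. Numbers 1 and 2 lay below, and numbers 4 and 5 above, every BCP+MSC construct. The log2 fold change was 0.45 (SE 0.59, edgeR adjusted p = 0.716). Nkg7, a membrane protein of cytotoxic granules, was at 2.59, 3.04, 11.8 and 18.4 CPM against 9.19, 1.95, 8.61 and 11.2 CPM (log2 fold change 0.22, adjusted p = 0.875). Its numbers 4 and 5 also lay above every BCP+MSC construct, while numbers 1 and 2 lay above BCP+MSC number 2 and below the other 3.

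Gzma was at 3.09, 2.96, 7.71 and 30.5 CPM in (dep)BCP+MSC (log2 fold change -0.15, edgeR adjusted p = 0.946), and only number 5 lay above the BCP+MSC range. Prf1 was at 1.40, 0.337, 3.43 and 4.20 CPM (log2 fold change -0.91, adjusted p = 0.359). Ifng was at 0, 0.0723, 0.694 and 1.05 CPM against 0.0546, 0.198, 0.0496 and 0.134 CPM, again with numbers 4 and 5 above every BCP+MSC construct (log2 fold change 2.10, SE 0.95, unadjusted p = 0.0365, adjusted p = 0.213). Without numbers 1 and 2, Gzmb was at 1.30 and Ifng at 2.96 on the log2 scale (unadjusted p = 0.0177 and 0.00412), and neither passed the adjusted test (adjusted p = 0.418 and 0.252). Gzma, Nkg7 and Prf1 were then at 0.65, 0.98 and -0.21. In all, 5 of the 10 genes passed the unadjusted level, 1 higher and 4 lower, where 9.66% and 10.7% of all genes did. With both left out it was 3 of the 10, Gzmb and Ifng higher and Ncr1 lower, where 4.32% and 4.68% of all genes were.

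**Figure D2:**
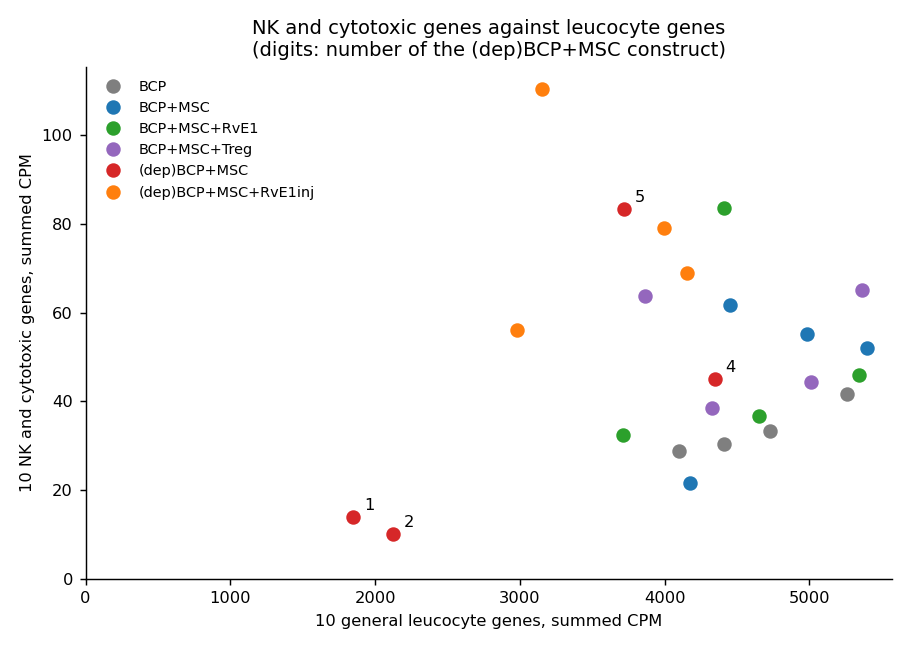
Summed CPM of the 10 NK and cytotoxic genes (y axis) against the summed CPM of 10 general leucocyte genes (x axis) in each of the 24 constructs, coloured by group. Numbers 1 and 2 of (dep)BCP+MSC lie at the lower left with 13.9 and 10.1 CPM, while numbers 4 and 5 (45.1 and 83.2 CPM) lie among the other groups.

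A ratio between genes of the same construct does not depend on the scaling of the library. The ratio of Gzmb to Ncr1, chosen after the values were seen and so given without a test, ran from 0.52 to 11.5 over the 16 constructs without toxin. It ran from 13.9 to 36.4 over the 8 constructs with toxin, so the values did not overlap. In (dep)BCP+MSC it was 15.0, 19.3, 19.9 and 36.4, of which numbers 1 and 2 rest on the 1 and 3 counts of Ncr1. In (dep)BCP+MSC+RvE1inj it was 24.9, 15.5, 15.0 and 13.9, of which numbers 3 and 4 rest on 9 and 12 counts. The exact binomial 95% intervals of these 4 ratios, for counting error only, began at 2.31, 6.30, 7.67 and 7.76, within the range without toxin. The intervals of the other 4 began above 11.5, while the highest interval without toxin ended at 24.6. Against BCP+MSC, Ncr1 itself was at -2.37 on the log2 scale in (dep)BCP+MSC and at -1.27 in (dep)BCP+MSC+RvE1inj. A gene that did not change would therefore also have a higher ratio to Ncr1 with toxin. The share of all genes whose ratio to Ncr1 separates in this way was not tested. Such a separation is thus not shown to be particular to granule genes.

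Nkg7 over Ncr1 ran from 1.66 to 14.4 without toxin and from 19.3 to 51.5 with it, and the interval of 5 of the 8 ratios with toxin began above 14.4. The ranges overlapped for Gzma over Ncr1 (1.38 to 27.5 against 12.6 to 85.4), for Klrb1c over Ncr1 (1.36 to 5.86 against 2.83 to 9.33) and for Eomes over Ncr1 (0.74 to 2.69 against 1.73 to 6.59). Prf1, also a granule gene, had 305 counts beside 49 of Ncr1 in BCP+MSC number 3. In (dep)BCP+MSC+RvE1inj number 4 it had 35 beside 12, so its ratio to Ncr1 overlapped too. Klrk1, Klrd1 and Ifng were not set against Ncr1. T cells also make granzyme B and Nkg7. The T cell gene Cd3e was at 2.43 to 10.2 CPM in (dep)BCP+MSC and 3.51 to 11.6 CPM in (dep)BCP+MSC+RvE1inj, against 0.755 to 5.90 CPM without toxin, and its part in these ratios was not tested.

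**Figure D3:**
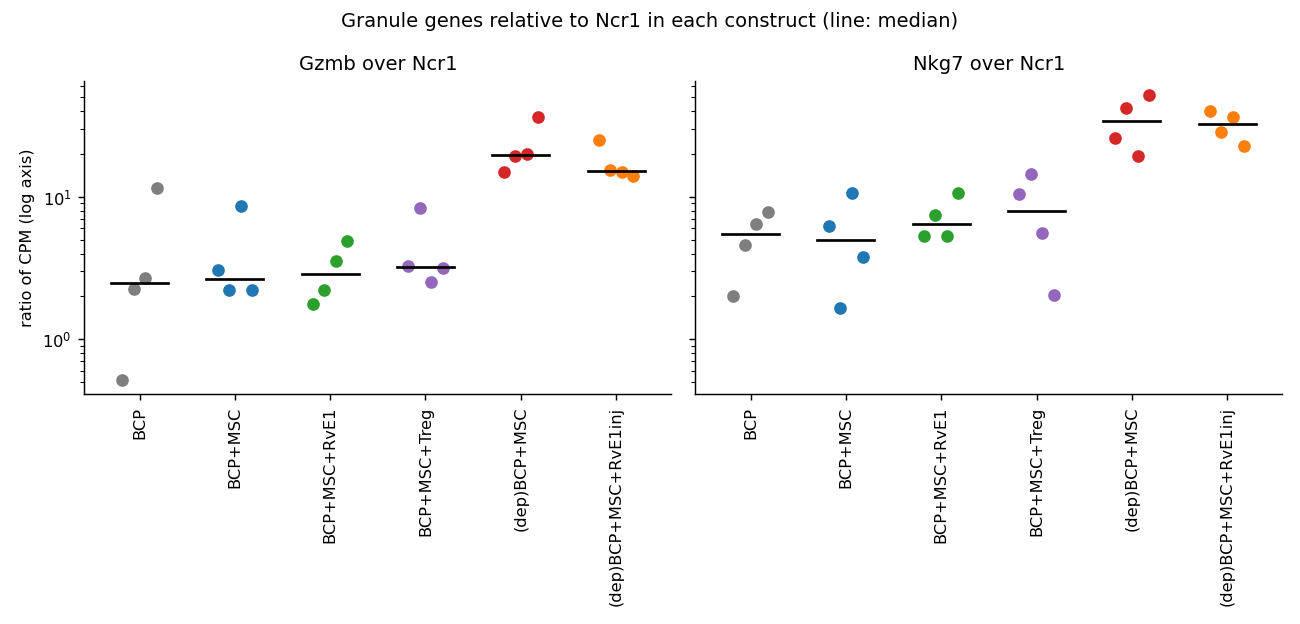
Ratio of the CPM of Gzmb (left) and Nkg7 (right) to that of Ncr1 in each construct, by group, on a log axis (lines are group medians). All 8 constructs from hosts given toxin lie above all 16 from hosts without it, but counting error takes 4 of the 8 (Gzmb) and 3 of the 8 (Nkg7) into the range without toxin. The ratios of Gzma, Prf1, Klrb1c and Eomes to Ncr1, not shown, overlapped. Ncr1 itself was lower with toxin, and the share of all genes whose ratio to it separates in this way was not tested.

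Among 26 other NK receptor genes tested in the same comparison, 2 fell, 1 rose and the median log2 fold change was -0.88, beside 3.92% of all genes past the adjusted threshold. Klre1, which pairs with other Klr receptors, fell by 2.27 on the log2 scale (SE 0.57, edgeR adjusted p = 0.0233), and Klrg1, an inhibitory receptor of mature NK and effector T cells, fell by 1.56 (SE 0.45, adjusted p = 0.0474). Tigit, a checkpoint receptor found on NK and T cells, rose by 1.96 (SE 0.55, adjusted p = 0.0454). At the unadjusted level 10 of the 26 were lower and 2 higher, where 10.7% and 9.66% of all genes were. When the low pair of the toxin group was left out, these counts were 2 and 2 (4.68% and 4.32% of all genes). Klre1, Klrg1 and Tigit were then at -1.52, -0.89 and 2.29, and none passed the adjusted test (edgeR adjusted p = 0.374, 0.522 and 0.169).

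Of 10 genes for chemokines and trafficking, Cx3cr1, a receptor of monocytes, macrophages and NK cells, fell by 3.66 on the log2 scale (SE 0.48, edgeR adjusted p = 0.000170). Cxcr6, a receptor of tissue T and NK cells, rose by 1.76 (SE 0.50, adjusted p = 0.0450). Serpinb9b, of the family of granzyme inhibitors, fell by 3.11 (SE 0.59, adjusted p = 0.00422) and was the only gene past the threshold among 12 for granule cargo, release and inhibitors. Without numbers 1 and 2, Cx3cr1 (-3.43) and Cxcr6 (2.44) still passed (edgeR adjusted p = 0.0269 and 0.0158), and Serpinb9b, at -2.36, did not (adjusted p = 0.0883).

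None of 8 other granzymes, 10 lineage factors, 16 activating cytokines and receptors, 7 receptor adaptors, 11 receptor ligands, 5 death receptor ligands or 20 genes of the interferon-gamma response passed edgeR's adjusted test. At the unadjusted level these lists held, higher and lower respectively, 1 and 0, 2 and 0, 3 and 4, 0 and 2, 0 and 3, 0 and 1, and 2 and 2 genes, beside 9.66% and 10.7% of all genes. When the low pair was left out and 4.32% and 4.68% of all genes passed, the counts were 3 and 0, 4 and 0, 4 and 0, 0 and 0, 0 and 0, 0 and 0, and 7 and 0. Gzmk, a granzyme of memory T cells, had the smallest p of the other granzymes (log2 fold change 1.78, SE 0.85, adjusted p = 0.234). Tnf was at -0.95 (SE 0.36, adjusted p = 0.141), and the transcription factors Nfil3 and Runx3 at 0.80 (SE 0.30, adjusted p = 0.132) and 0.87 (SE 0.34, adjusted p = 0.145). After the same omission Gzmk, Tnf, Nfil3 and Runx3 were at 2.65, -0.39, 0.72 and 1.02.

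Marker genes of other cells moved in the same samples. Of all genes, 3.92% passed the adjusted threshold and 2.17% fell past it, and their median log2 fold change was -0.04. Of 14 T cell markers, Cd6 rose by 1.37 on the log2 scale (SE 0.33, edgeR adjusted p = 0.0188). Of the 14, 12 had values above 0, with a median of 0.90, and their summed level was 45.4 to 204 CPM against 36.5 to 83.5 CPM in BCP+MSC. Of 8 dendritic cell markers, 3 fell (Ccr7 by 2.04, Flt3 by 1.84 and Siglech by 2.73), with summed levels of 13.1 to 27.0 CPM against 44.9 to 80.2 CPM. Of 14 skin and hair markers, 3 rose, and their summed level was 23.3 to 471 CPM against 8.45 to 57.5 CPM. Fcer1a rose by 2.64 (edgeR adjusted p = 0.00629) among 8 mast cell markers and Mertk by 1.5 (adjusted p = 0.0261) among 9 macrophage markers, the only gene of each list past the threshold. Of the mast cell markers 6 lay above 0 and 2 below (median 0.74). Of the macrophage markers 2 lay above 0 and 7 below (median -0.19), with summed levels of 3606 to 6987 CPM against 3765 to 8134 CPM. Without numbers 1 and 2 of the toxin group Cd6 was at 1.76 (edgeR adjusted p = 0.0256), and Ccr7, Flt3 and Siglech, at -1.54, -1.31 and -1.92, no longer passed, nor did Fcer1a (2.35) and Mertk (1.13). The 3 skin genes (Lor, Krt1 and Krt10) then went from 10.04, 6.26 and 3.86 to 0.96, 0.62 and -0.32. None of the T cell or dendritic markers was at 0 throughout either group. The part of these cells in the results on NK genes was not tested.

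The comparison of (dep)BCP+MSC+RvE1inj with (dep)BCP+MSC asked what daily local injections of RvE1 changed in hosts given toxin. No injection of vehicle alone is described for (dep)BCP+MSC, so RvE1 and the act of injection cannot be told apart. None of the 10 genes, and 0% of all genes, passed edgeR's adjusted test, and 4 of the 10 were higher at an unadjusted p under 0.05, where 3.46% of all genes were. The fold changes of all 10 lay above 0, from 0.56 to 1.20 on the log2 scale, where 50.1% of all genes were above 0. The genes are correlated with each other and share the same 8 samples, so this count is not 10 separate observations.

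Eomes was at 2.57, 2.67, 2.84 and 1.48 CPM in (dep)BCP+MSC+RvE1inj, with a log2 fold change of 1.20 (SE 0.52, edgeR unadjusted p = 0.0285). Nkg7 was at 18.7, 23.2, 24.2 and 16.1 CPM (1.19, SE 0.56, unadjusted p = 0.0468). Klrk1 was at 5.92, 8.12, 9.55 and 4.86 CPM (1.10, SE 0.42, unadjusted p = 0.0143), and Klrb1c at 3.37, 3.76, 5.75 and 2.01 CPM (1.10, SE 0.42, unadjusted p = 0.0150). The adjusted p of each of the 4 was 0.668. In all 4 genes the groups overlapped.

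Gzma was at 18.5, 18.8, 47.6 and 15.9 CPM with RvE1 injection (log2 fold change 1.17, edgeR adjusted p = 0.687). Gzmb was at 11.7, 12.7, 10.1 and 9.89 CPM (0.65, adjusted p = 0.758), all above numbers 1 and 2 of (dep)BCP+MSC and all but number 2 below numbers 4 and 5. Prf1 was at 3.52, 4.44, 3.96 and 2.07 CPM (0.56, adjusted p = 0.771), and Klrd1 at 3.55, 3.39, 3.28 and 2.90 CPM (0.73, adjusted p = 0.674).

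Ncr1 was at 0.467, 0.821, 0.672 and 0.711 CPM (log2 fold change 1.10, edgeR adjusted p = 0.668), above numbers 1, 2 and 5 of (dep)BCP+MSC in 4 of 4 constructs. Ifng was at 0.514, 1.18, 2.54 and 0.118 CPM (1.14, adjusted p = 0.740), a wide spread within the group. Without numbers 1 and 2 of (dep)BCP+MSC, 0 of the 10 genes passed the unadjusted level, 8 had a value above 0 (51.7% of all genes did) and the highest was 0.55, while Gzmb and Prf1 were at -0.16 and -0.11 on the log2 scale.

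**Figure D4:**
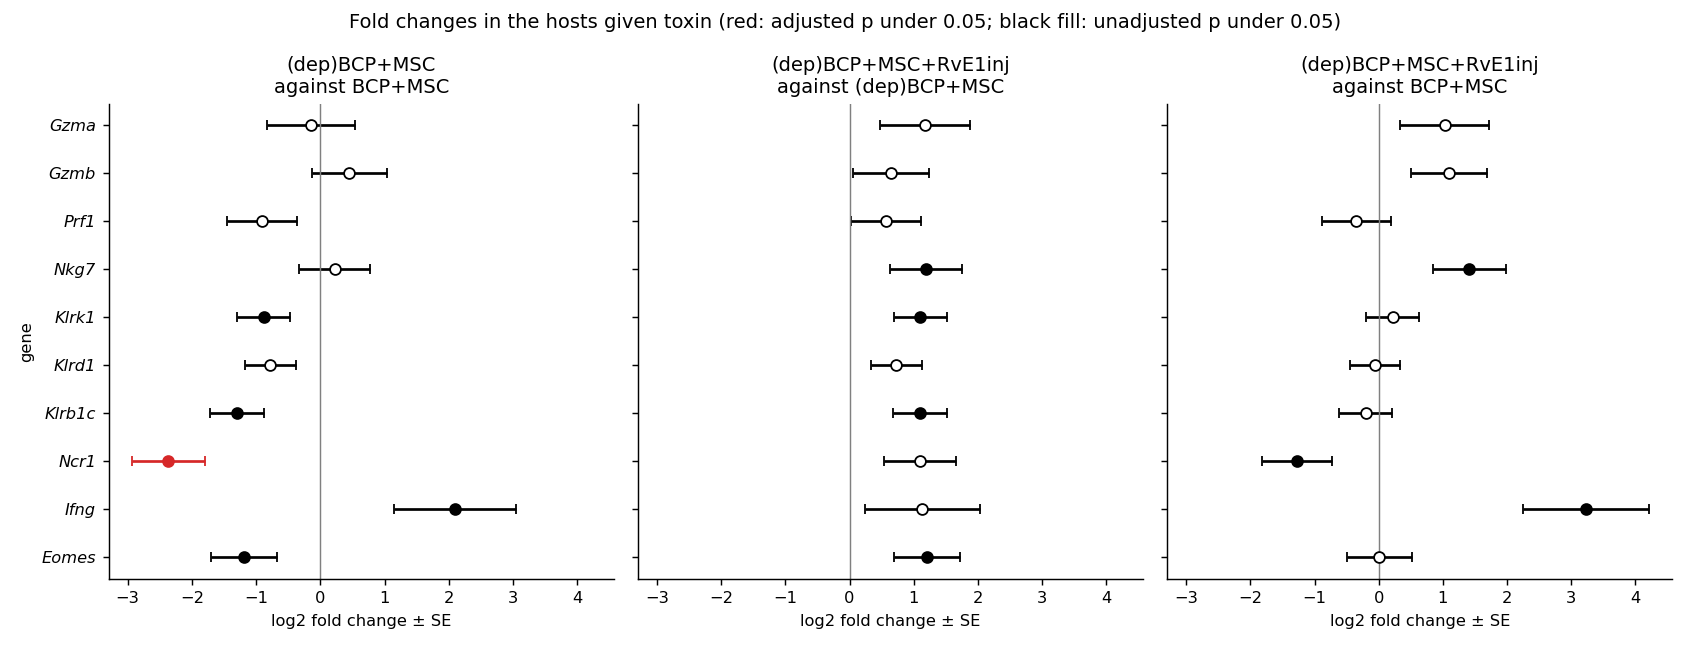
Log2 fold change with SE (x axis) of each of the 10 genes in 3 comparisons that involve hosts given toxin. Red marks an adjusted p under 0.05 and black fill an unadjusted p under 0.05. Ncr1 is red in (dep)BCP+MSC against BCP+MSC, and all 10 genes lie right of 0 in (dep)BCP+MSC+RvE1inj against (dep)BCP+MSC.

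In the other lists of this comparison, 6 of 26 other NK receptors, 7 of 20 interferon-gamma response genes, 6 of 14 T cell markers and 4 of 6 B cell markers were higher at the unadjusted level, where 3.46% of all genes were, and none passed the adjusted test. With the low pair of (dep)BCP+MSC left out the counts were 2, 0, 0 and 5, where 1.83% of all genes were. Klra1, a Ly49 receptor, had a log2 fold change of 3.84 (SE 0.97, edgeR adjusted p = 0.668), and Klrg1 1.73 (SE 0.45, adjusted p = 0.668). Klra1 was uneven with RvE1 injection, at a mean of 1.95 CPM (SD 2.79, n = 4), against 0.139 CPM (SD 0.121) in (dep)BCP+MSC. Tbx21, which encodes the T-box factor T-bet, was at 1.35 (SE 0.50), and Ccl5, a chemokine of cytotoxic lymphocytes, at 1.17 (SE 0.46), with the same adjusted p. Of the interferon-gamma targets, the GTPase genes Igtp and Irgm1 were at 1.86 (SE 0.56) and 1.34 (SE 0.37). Without that pair Klra1, Klrg1, Tbx21, Ccl5, Igtp and Irgm1 were at 3.42, 1.08, 0.62, 0.52, 1.17 and 0.88, each with an edgeR adjusted p of 1. Other granzymes went the other way: 2 of 8 lay above 0 and 6 below, where 50.1% of all genes were above 0. Their median log2 fold change was -0.93, and -1.40 without that pair. Gzmg, Gzmf and Gzmd were at -2.88, -2.40 and -2.02 and Gzme at 1.86 (edgeR adjusted p = 0.668 for each), all at low group means, from 0.0490 to 0.788 CPM. The summed T cell markers were at 187 to 225 CPM with RvE1 injection, and their part in these values was not tested.

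RvE1 was given to MSC in culture before implantation into undepleted hosts, or as local injections in hosts given toxin. The effect of injection exceeded that of priming for all 10 genes, by a median of 0.96 on the log2 scale, where 54.2% of all genes had a difference above 0. None of the 10 passed an unadjusted p of 0.05 (4.45% of all genes did) or edgeR's adjusted test (0%). With (dep)BCP+MSC numbers 1 and 2 left out, the difference was above 0 for 8 of the 10 (55.8% of all genes), with a median of 0.27, and Klrd1 and Ifng were at -0.06 and -0.43. Route, host and constructs differ between the pairs and cannot be told apart.

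(dep)BCP+MSC+RvE1inj was also set against BCP+MSC, a comparison added after the values were seen. It shares its control samples with the comparison above and does not use the spread-out (dep)BCP+MSC group for its fold. Toxin, RvE1, the act of injection and the experiment differ together here and cannot be told apart. None of the 10 genes passed edgeR's adjusted test (0.72% of all genes did), and 2 were higher and 1 lower at the unadjusted level (6.54% and 7.2%). Nkg7 lay above BCP+MSC in every construct, with a log2 fold change of 1.41 (SE 0.57, adjusted p = 0.271). Gzmb also lay above BCP+MSC in every construct (1.10, SE 0.59, adjusted p = 0.418, exact permutation p = 0.0286), and 2.77% of all genes did not overlap in this direction. Ifng was at 3.24 (SE 0.98, adjusted p = 0.129) and Ncr1 at -1.27 (SE 0.55, adjusted p = 0.300), 3 of 4 injected constructs lying below every BCP+MSC value for Ncr1.

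Klrk1, Klrd1, Klrb1c and Eomes were at 0.22, -0.06, -0.20 and 0.01 on the log2 scale in this comparison. In the same samples all 14 T cell markers were higher at the unadjusted level, where 6.54% of all genes were. Of the 14, 5 rose past the adjusted threshold, which 0.72% of all genes passed in either direction. Among the 5 were Cd6 (2.14), Cd8b1 (2.98), Cd4 (1.42) and Lck (1.58). Of the interferon-gamma response, Gbp4 rose by 2.04 (SE 0.40, edgeR adjusted p = 0.0155) and Igtp by 2.48 (SE 0.57, adjusted p = 0.0465). Tigit rose by 2.32 and Il12rb1, a receptor subunit for interleukin 12, by 2.02, both just under the threshold (edgeR adjusted p = 0.04997 for each). Cxcr6 rose by 2.22 (adjusted p = 0.0355), while Cx3cr1 fell by 3.18 (adjusted p = 0.00259) and Serpinb9b by 3.02 (adjusted p = 0.0169). The mast cell marker Fcer1a rose by 2.49. The part of T cells in the values of Gzmb, Nkg7 and Ifng was not tested.

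**Figure D5:**
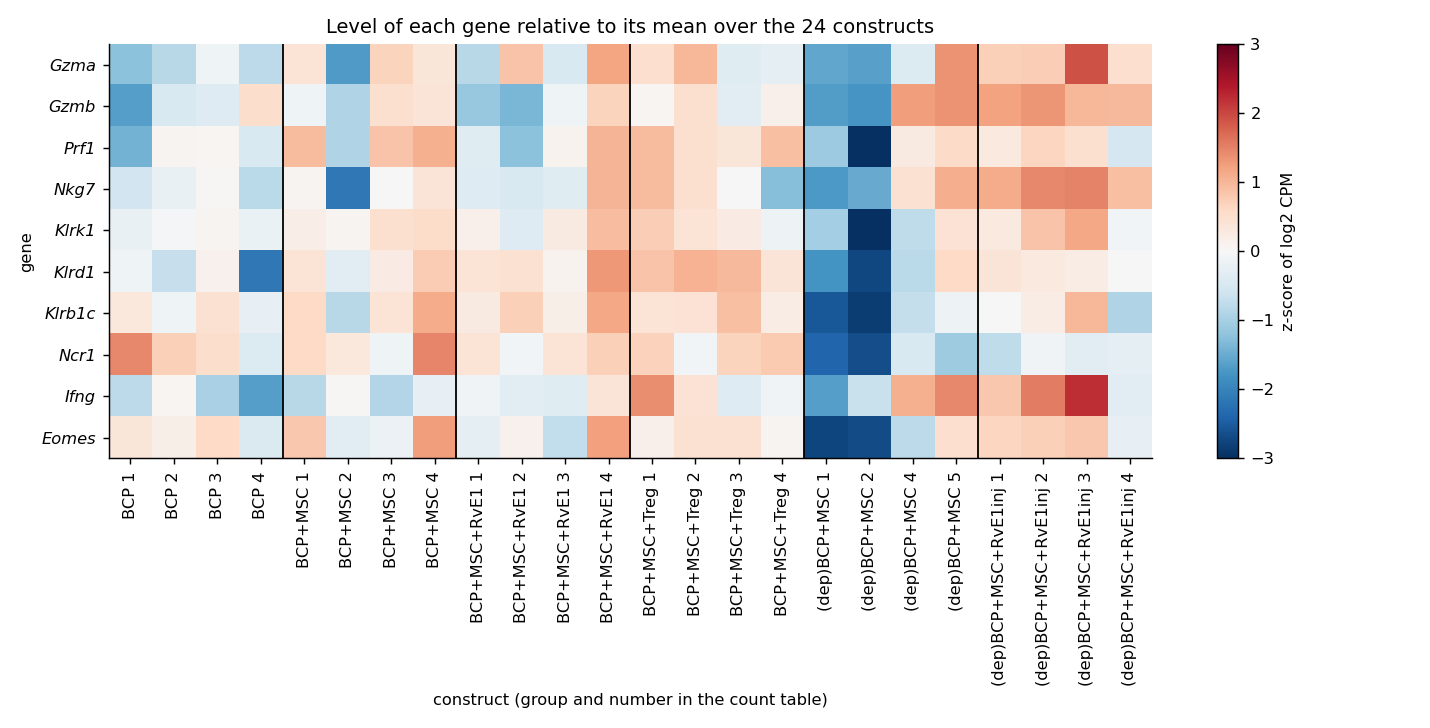
Level of each of the 10 genes (rows) in each of the 24 constructs (columns), as the z-score of its log2 CPM over all constructs (colour). Numbers 1 and 2 of (dep)BCP+MSC are blue for every gene, and in the other 6 constructs from hosts given toxin Ncr1 is pale or blue while Gzmb and Nkg7 are red.

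Across the 24 constructs the 10 genes varied together. All 45 pairs had a Pearson r of log2 CPM above 0, from 0.0569 to 0.909 with a median of 0.633. Eomes was closest to the others (mean r 0.692), and Ncr1 and Ifng were farthest (0.427 and 0.440). These values describe samples that share group, depth and leucocyte content, and no test was made of them.

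Of 13630 other genes with a mean of at least 1 CPM, Klrc1, which encodes NKG2A, followed the mean of the 10 genes most closely (r = 0.908 over 24 constructs). Ccl5 (0.901) and Cd7 (0.891), an antigen of T and NK cells, came next. Plau, H2-DMa, Scimp, BC147527, Klra7, H2-DMb1 and Cd74 completed the first 10, with r from 0.861 to 0.833. H2-DMa, H2-DMb1 and Cd74 serve antigen presentation on MHC class II. After the group means were subtracted, the first 10 were Klrc1, Ccl5, Ctsw, Il2rb, Cd7, Klra7, Tbx21, Lck, Fcrls and Cd74, of which 5 were shared with the first set.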

How the data were processed

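Bulk RNA sequencing of 24 constructs in 6 groups of 4 was analysed. The authors aligned reads with HISAT2 2.0.5 and counted them on exons of the GENCODE M13 annotation (GRCm38) with featureCounts 1.5.2, per the file headers and the labels. The deposited values are raw counts, without normalization. The counting command set no strand or multiple-alignment option, so overlapping genes and near-identical copies can lose or gain reads. For (dep)BCP+MSC the table numbers its columns 1, 2, 4 and 5 but the labels number the samples 1 to 4. Columns 4 and 5 were kept in the group with no replicate number.

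Counts were tested with edgeR 4.0.16 (R 4.3.3): genes with at least 10 counts, TMM scaling, 1 robust quasi-likelihood model over all samples without covariates, and Benjamini-Hochberg adjustment over 30564 genes, with a threshold of 0.05. The 8 planned comparisons were supplemented by 1 added later. Log2 CPM used a prior count of 2. An exact permutation test (two-sided, 70 arrangements, smallest p 0.0286) was added for single genes. All 10 genes are named. Of 22 lists, at most 4 genes per comparison are named: those past the adjusted threshold, otherwise those with the smallest unadjusted p under 0.05. Genes and lists were chosen with earlier results of these data known. Alternatives were RLE, leucocyte-gene scaling, filterByExpr, no filter, DESeq2 1.42.0, only the compared groups, a replicate block and leaving out samples. On simulated counts for (dep)BCP+MSC against BCP+MSC (29731 genes), 77 of 100 genes changed 4-fold and 14 of 100 changed 2-fold were recovered, with 3 false calls. The changed genes had means above 1 CPM, and simulated samples of a group shared 1 expected level per gene. The recovery therefore does not cover lower genes such as Ifng, or a group split like (dep)BCP+MSC. The depth floor was 3 counts per sample, which covers counting error only.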

Additional observations from a re-analysis of the deposited data

Results flagged for a closer look

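In 60 sets of 4 constructs (10 genes in 6 groups), the highest or lowest construct was set against its nearest neighbour by Dixon's test, which flags about 1 in 20 sets by chance. It flagged 2. Gzma in (dep)BCP+MSC+RvE1inj number 3 was at 47.6 CPM, against 15.9, 18.5 and 18.8 CPM in the other constructs of the group. Nkg7 in BCP+MSC+RvE1 number 4 was at 17.3 CPM, against 6.32, 6.65 and 6.73 CPM. Neither gene passed the adjusted test in a comparison that used these constructs.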

How the results depend on the processing

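Before any alternative, Ncr1 was the 1 gene of the 10 past the adjusted threshold in (dep)BCP+MSC against BCP+MSC. The number past it was 2 with DESeq2, 5 with the replicate block, 0 with only the compared groups and 0 without both low toxin libraries. It ran from 0 to 5 when each sample was left out in turn. At the unadjusted level 5 genes passed, and this number was 2 with leucocyte scaling, 8 with the replicate block, 2 with only the compared groups, 3 without both low toxin libraries and 2 to 7 with each sample left out.

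In (dep)BCP+MSC+RvE1inj against (dep)BCP+MSC the adjusted number of 0 became 4 with the replicate block. The unadjusted number of 4 became 10 with the block, 0 with only the compared groups, 0 without both low toxin libraries and 1 to 6 with each sample left out. DESeq2 called 1 gene in (dep)BCP+MSC+RvE1inj against BCP+MSC. For the injection minus the priming effect, the unadjusted number of 0 became 1 with DESeq2, 10 with the replicate block and 0 to 5 with each sample left out. Among the groups without toxin, BCP+MSC+RvE1 against BCP had 1 gene at the unadjusted level, and 2 with leucocyte scaling, DESeq2 or the block. BCP+MSC+Treg against BCP had 2, and 4 with only the compared groups. BCP+MSC+Treg against BCP+MSC had 0, and 1 with leucocyte scaling, no filter, DESeq2 or only the compared groups. With each sample left out the unadjusted numbers were 0 to 1, 0 to 2 and 0 to 1, and 0 to 1 for BCP+MSC against BCP. The causes of these shifts were not tested. Where samples were dropped, the sample number was also smaller.

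The replicate block kept only numbers 1 and 2 of (dep)BCP+MSC, the constructs with low leucocyte genes, since its columns numbered 4 and 5 could not be matched to a labelled replicate number. Same-numbered samples of different groups did not vary together (median r 0.00449 over 50 pairs, against -0.0408 over 150 other pairs). The ranges were wide (-0.619 to 0.625 and -0.637 to 0.692). No pairing by number was seen, but with deviations from means of 4 samples a weak one could be missed. In (dep)BCP+MSC against BCP+MSC, the block turned the log2 fold changes of Gzmb, Nkg7 and Ifng to -1.49, -1.31 and -1.45. Gzma, at -0.15, turned to 0.38 with leucocyte scaling and to 0.65 without both low toxin libraries. With each sample left out it ran from -1.42 to 0.17, turning without BCP+MSC number 3 or (dep)BCP+MSC number 1, 2 or 4. Gzmb ran from -0.017, without (dep)BCP+MSC number 5, to 0.79. Nkg7 ran from -0.40, without the same construct, to 0.51, and was also below 0 without BCP+MSC number 2. In (dep)BCP+MSC+RvE1inj against (dep)BCP+MSC, Gzmb and Prf1 turned to -0.16 and -0.11 without both low toxin libraries. None of the fold changes that turned had passed the adjusted threshold. Depth limits Ifng most, with 3 counts or fewer in 9 samples.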
